A study of Canis lupus familiaris with 4 samples.

Results

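A set of 5 microRNAs (miRNAs) with a record in breast cancer metastasis, miR-9, miR-31, miR-126, miR-335 and miR-210, were followed in extracellular vesicles (EVs) of canine mammary carcinoma cells. They were picked by name, with earlier results of these data known, and they fill 7 of the 673 rows of the deposited table. The 3 rows of miR-9 (cfa-mir-9-1, cfa-mir-9-2 and cfa-mir-9-3) held equal values in every library and are counted once, which leaves 5 miRNAs. The EVs came from 2 cell lines of 1 canine patient. CHMp cells, grown from the primary tumor, gave the pTDEs, CHMm cells, grown from a metastasis, gave the mTDEs, and each line has 2 libraries. Both lines were grown with fetal bovine serum and were moved to medium without serum before EVs were collected. No treatment of the sequenced cells is named. Luciferase-transfected cells of both lines were also made, and whether these or the original cells gave the sequenced EVs is not stated. The authors call the replicates biological, but the labels do not say whether they came from separate cultures. The spread between replicates may thus be technical, and each tumor is represented by 1 cell line.

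A miRNA is a short RNA that guides the silencing complex to messenger RNAs with a matching site and lowers their output. miR-9 is known for targeting CDH1, the gene of E-cadherin, and for promoting motility and metastasis of breast cancer cells. miR-31, miR-126 and miR-335 are known as suppressors of breast cancer metastasis. miR-31 represses a set of genes for invasion and adhesion that includes RHOA and ITGA5, miR-126 is the characteristic miRNA of endothelial cells, and miR-335 targets the transcription factor SOX4 and the matrix protein tenascin C. miR-210 is induced by hypoxia-inducible factor and lowers mitochondrial respiration through ISCU. EVs carry miRNAs out of the cell, and their content need not follow the content of the cell.

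In the RefSeq annotation of another dog assembly (UU_Cfam_GSD_1.0), all 7 rows matched a gene by name. MIR126 lies within the protein-coding gene EGFL7, which encodes a protein with EGF-like domains that is secreted by endothelial cells, and MIR335 lies within MEST, an imprinted gene. MIR210 lies within a long noncoding RNA gene (LOC119864115) between RASSF7 and PHRF1, and MIR31 lies between IFNE and MTAP. The copies of miR-9 lie at 3 separate places, MIR9-1 between MEF2D and RHBG, MIR9-2 next to MEF2C, and MIR9-3 within a long noncoding RNA gene (LOC102153883) between POLG and RHCG. None of the 7 has another miRNA gene within 10000 bases. Because the values of the miR-9 rows are equal, the copy of origin cannot be told apart. Only small RNA was sequenced, so the levels of the host genes are not known.

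Levels are given as CPM (reads of a row in each 1000000 reads summed over all rows of its library), recovered from the deposited whole numbers, together with the number of reads where it is low. By this sum the pTDE libraries were the deeper ones, with 6296436 and 5053568 reads in replicates 1 and 2, whereas the mTDE libraries held 3456978 and 2330296 reads. A read of a miRNA with several rows, such as miR-9, may count in each of them, so these sums can exceed the reads sequenced. Where a miRNA was listed at 0, up to 3 reads could have been missed, a limit of 0.476 to 1.29 CPM depending on the library, and this limit and the Poisson intervals below cover counting error only. Among rows with 1 to 30 reads, 71.0% to 87.0% had an even number of reads in the 4 libraries, and forward and reverse reads had been merged, so 1 RNA fragment may count as more than 1 read. Few rows of the mTDE libraries lay at the low end. Rows with 1 to 15 reads made up 3.59% and 6.33% of those above 0 in mTDE replicates 1 and 2, against at least 16.4% in both pTDE libraries. HiSeq and NovaSeq instruments were used, and which library ran on which is not given in the sources used here, so instrument and group cannot be told apart.

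The 5 miRNAs spanned more than 3 orders of magnitude, and miR-9 was the highest in every library. Together, with miR-9 counted once, they made up 0.179% and 0.134% of the summed reads of the pTDE libraries, against 0.0884% and 0.112% of the mTDE libraries (replicates 1 and 2 of each). miR-9 accounted for 89.6% and 88.2% of that sum in pTDEs and for 96.3% and 66.7% in mTDEs. miR-210 was the second in all 4 libraries and miR-31 was the lowest or shared the lowest place. Only miR-335 and miR-126 changed places, with miR-126 above miR-335 in pTDE replicate 2 and below it in the other 3 libraries. Within pTDEs the ranges of miR-335 and miR-126 overlapped and all other neighbors were apart. Within mTDEs only miR-9 was apart, and each of the other neighbors (miR-210, miR-335, miR-126 and miR-31, in this order) overlapped with the next.

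**Figure D1:**
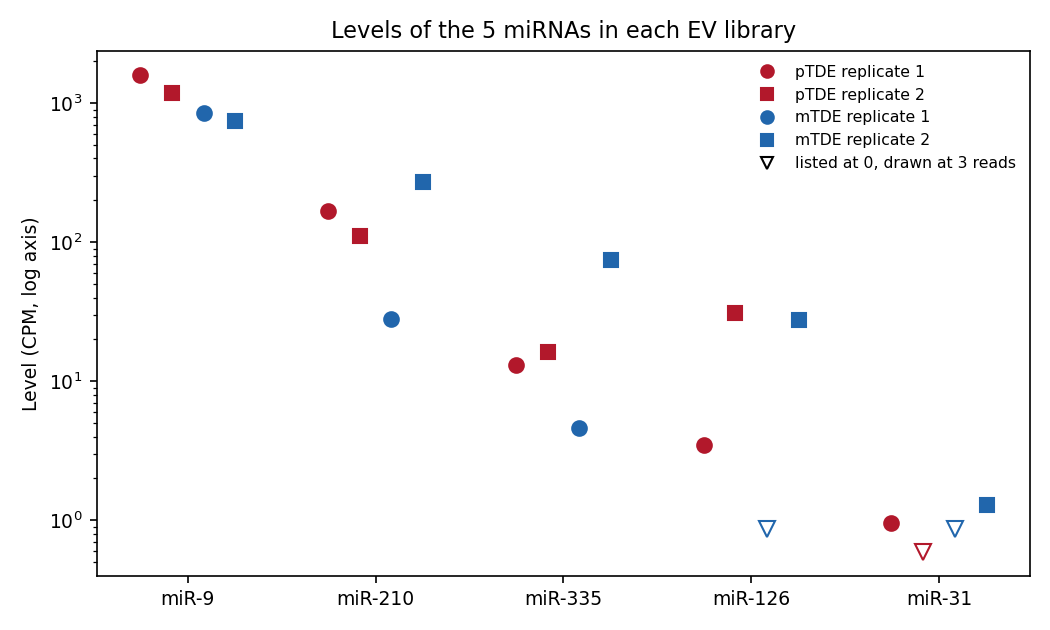
Level of each miRNA in CPM (log axis) in the 4 libraries, red for pTDEs, blue for mTDEs, circles for replicate 1, squares for replicate 2, and open triangles at the 3-read limit where a miRNA is listed at 0. The pTDE points of miR-9 lie above its mTDE points, whereas the mTDE points of miR-210 and miR-335 lie on both sides of the pTDE points.

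To ask whether any of them differed between the cell lines, limma was fitted to log2(CPM + 1). A row entered the fit when both libraries of either cell line were above 0, which left 326 rows, and p-values were adjusted over all of them by the Benjamini-Hochberg method. miR-9, miR-126, miR-335 and miR-210 passed this filter and miR-31 did not. Of the 4 tested, 0 had an adjusted p-value under 0.05, 0 had an unadjusted p-value under 0.05, and limma voom on recovered reads also called 0. Of all 326 rows tested, 1.84% had an adjusted p-value under 0.05 from limma and 19.6% an unadjusted one. miR-126, at 0 in mTDE replicate 1, entered the fit only through pTDEs, so its test is conditioned on being above 0 there. Log2 fold changes are pTDEs over mTDEs, with a median of -0.03 over all rows tested. Median-ratio scaling would shift the median of all rows tested by 0.246. An exact permutation test of 2 against 2 libraries cannot give a two-sided p-value under 0.333.

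The metastasis-promoting miR-9 (cfa-mir-9-1 to cfa-mir-9-3) was higher in both pTDE libraries than in both mTDE libraries. It was at 1604 CPM in pTDE replicate 1, 1183 CPM in pTDE replicate 2, 852 CPM in mTDE replicate 1 and 749 CPM in mTDE replicate 2. The cell lines did not overlap, and the mean was 1394 ± 298 CPM for pTDEs, against 800.3 ± 72.5 CPM for mTDEs (SD, n = 2 each). The fitted difference was 0.79 ± 0.39 on the log2 scale (fold change ± standard error) and did not pass the threshold (limma adjusted p = 0.33). This is a 1.72-fold difference with a 95% interval from 0.829-fold to 3.59-fold. Of all rows tested, 26.1% were likewise higher in both pTDE libraries than in both mTDE libraries, and miR-9 ranked 187 of 326 by the size of its fold change. Its place in the library was also higher in pTDEs, at rank 54 of 342 rows and 62 of 347, against 72 of 306 and 87 of 332 in mTDE replicates 1 and 2. With median-ratio scaling the lowest pTDE level was 1220 and the highest mTDE level 955, again without overlap. The direction was the same in all 11 other fits and with each library left out. Log2 fold changes ran from 0.57 to 1.03, apart from 0.23 when the deposited values were used as CPM with no conversion, which is on another scale. In the 11 other fits the adjusted p-value from limma stayed above 0.05, from 0.30 to 0.55.

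**Figure D2:**
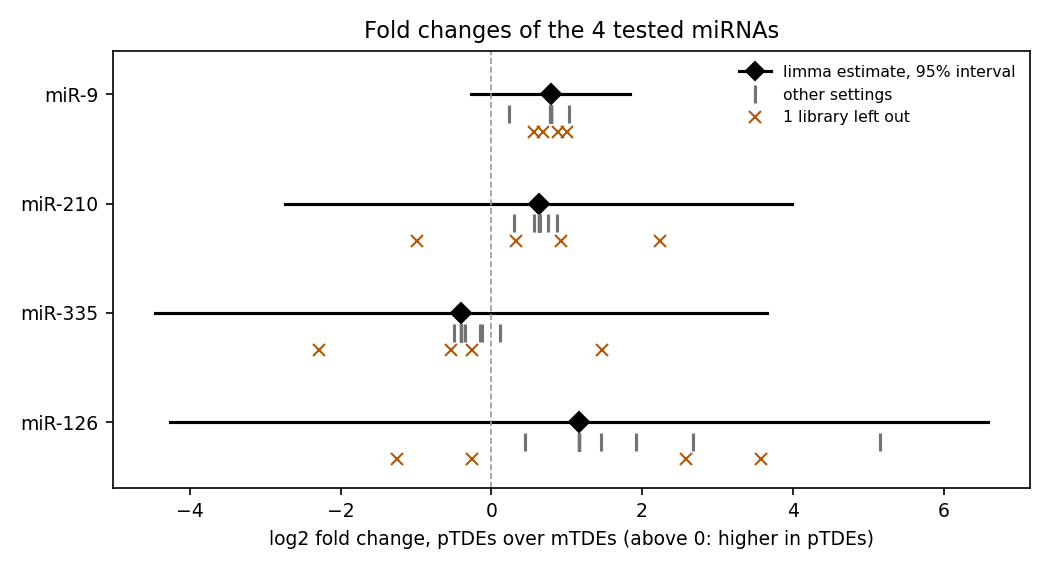
log2 fold change of the 4 tested miRNAs (x axis, above 0 is higher in pTDEs), with diamonds and lines for the limma estimate and its 95% interval, gray ticks for the 11 other fits and crosses for the fits with 1 library left out. Every interval includes 0, and only for miR-9 do all points lie on 1 side.

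The hypoxia-induced miR-210 (cfa-mir-210) showed no separation between the cell lines. Its pTDE levels were 169 CPM in replicate 1 and 111 CPM in replicate 2, which gives 139.6 ± 40.9 CPM (mean ± SD, n = 2). In mTDEs it was at 28.1 CPM (97 reads) in replicate 1 and 270.4 CPM in replicate 2, a mean of 149 ± 171 CPM. The mTDE libraries therefore lay below and above both pTDE libraries. The mean CPM was slightly lower in pTDEs, while the mean on the log2 scale was higher by 0.63 (standard error 1.25, limma adjusted p = 0.80), and its 95% interval ran from 0.151-fold to 15.9-fold. The value depended on the mTDE library used, at 2.24 without mTDE replicate 2 and -0.98 without mTDE replicate 1, with adjusted p-values of 0.19 and 0.36. By rank, mTDE replicate 1 (175) lay below both pTDE libraries (110 and 125), whereas mTDE replicate 2 (114) lay between them.

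Other miRNAs that have been linked to hypoxia (miR-23, miR-24, miR-26, miR-27, miR-103, miR-107 and miR-181) were all abundant enough to be tested. Of their 15 rows with distinct values, which count nearly equal copies of miR-26a and miR-103 separately, 0 were called in either direction. Their median log2 fold change was -0.67, with a range from -1.43 to 0.74. Their summed level was 52700 and 39700 CPM in replicates 1 and 2 of pTDEs and 53100 and 56800 CPM in the same replicates of mTDEs. The mTDE sums were close, but rows of the list differed in both directions between the mTDE replicates. cfa-mir-103-1 was at 2510 and 5740 CPM and cfa-mir-181c at 56.7 and 225 CPM, whereas cfa-mir-27b was at 11600 and 7440 CPM. The row with the highest mean level was cfa-mir-24-1, at 9910 and 8310 CPM in pTDEs and 14500 and 18700 CPM in mTDEs (log2 fold change -0.86, standard error 0.33, limma adjusted p = 0.26).

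Among the metastasis-suppressing miRNAs, miR-335 (cfa-mir-335) had close values in pTDEs and distant values in mTDEs. It was at 13.2 CPM (83 reads) and 16.2 CPM (82 reads) in pTDE replicates 1 and 2, a mean of 14.7 ± 2.16 CPM (SD, n = 2). In mTDE replicate 1 it was at 4.63 CPM, which is 16 reads with an exact 95% Poisson interval from 9.15 to 26, and in mTDE replicate 2 it was at 74.7 CPM (174 reads). The mTDE mean of 39.7 ± 49.5 CPM thus came from 1 library below and 1 above the pTDE range. The log2 fold change was -0.40 (standard error 1.51, limma adjusted p = 0.91), with a 95% interval from 0.0455-fold to 12.6-fold. It was -2.28 without mTDE replicate 1 and 1.47 without mTDE replicate 2. In mTDE replicate 1 only 3.59% of the rows above 0 were lower than miR-335, against 50.3% in mTDE replicate 2.

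miR-126 (cfa-mir-126) differed more between replicates than between the cell lines. It was at 3.49 CPM in pTDE replicate 1 (22 reads, Poisson interval 13.8 to 33.3) and at 30.85 CPM in pTDE replicate 2 (156 reads, 132 to 182). It was listed at 0 in mTDE replicate 1 and was at 27.5 CPM in mTDE replicate 2 (64 reads, 49.3 to 81.7). The ranges overlapped, with a mean of 17.2 ± 19.3 CPM for pTDEs, against 13.7 ± 19.4 CPM for mTDEs (SD, n = 2). The log2 fold change was 1.16 (standard error 2.02, limma adjusted p = 0.77), with an interval from 0.0521-fold to 96.3-fold. It turned to -1.25 without mTDE replicate 1 and to -0.25 without pTDE replicate 2, but was 3.58 without mTDE replicate 2 and 2.58 without pTDE replicate 1. With a 0 in mTDE replicate 1, the fold change of miR-126 also depended on the constant added before the logarithm. It was 2.67 with 0.1 CPM and 0.45 with 5 CPM in place of 1 CPM. In both cell lines, replicate 2 was the higher library.

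Because miR-126 is known from endothelium, miRNAs of other cell types were read beside it. The stromal list (miR-143, miR-145, miR-199 and miR-214) was above 0 in all libraries for 4 of 4 rows, and summed to 589 and 926 CPM in pTDE replicates 1 and 2 and to 81.6 and 762 CPM in mTDE replicates 1 and 2. The blood list (miR-142, miR-144, miR-150, miR-223, miR-451 and miR-486) was above 0 in all libraries for 5 of 6 rows, with miR-144 at 0 throughout. It summed to 261 and 893 CPM in pTDEs and to 706 and 3020 CPM in mTDEs, mostly from the red cell miRNAs miR-486 (cfa-mir-486-3p, the highest by mean level, from 110 CPM in pTDE replicate 1 to 1400 CPM in mTDE replicate 2) and miR-451 (123, 465, 138 and 1420 CPM in the same order). miR-122, the liver miRNA that is also found in serum, was at 158 and 98.5 CPM in pTDEs and at 364 and 570 CPM in mTDEs. The stromal and blood sums were, like miR-126, higher in replicate 2 of both cell lines, whereas miR-122 was higher in replicate 2 of mTDEs only. The 5 blood rows above 0 each followed this direction, beside 48.8% of all rows tested that were higher in replicate 2 of pTDEs and 64.1% in replicate 2 of mTDEs. The stromal rows did not all do so. cfa-mir-143 (102 and 573 CPM in pTDEs, 24 and 482 CPM in mTDEs) and cfa-mir-145 were higher in replicate 2 of both lines, while cfa-mir-199-1 was lower there in pTDEs (481 and 286 CPM in replicates 1 and 2) and cfa-mir-214 in mTDEs (6.94 and 1.71 CPM). Whether RNA of other cells or of serum contributed to miR-126 was not tested. None of the 10 tested rows of these 3 lists was called.

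**Figure D3:**
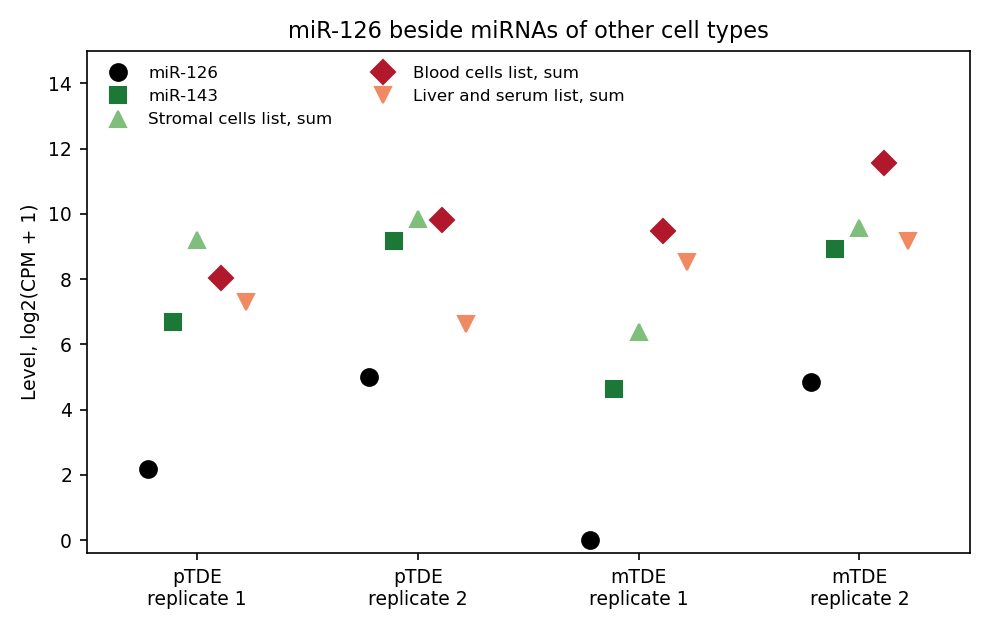
Level as log2(CPM + 1) in the 4 libraries of miR-126 (black circles), miR-143 (dark green squares) and the summed stromal, blood and liver lists. miR-126, miR-143, the stromal sum and the blood sum are each higher in replicate 2 than in replicate 1 of both cell lines, although 2 of the 4 stromal rows (not drawn) are lower there in 1 cell line, and miR-126 is listed at 0 in mTDE replicate 1.

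miR-31 (cfa-mir-31) was barely present in the libraries of either cell line. Only reads within a length window had been kept by the authors, and the part of this window in the low level was not tested. It was at 0.95 CPM in pTDE replicate 1 (6 reads, exact 95% Poisson interval 2.20 to 13.1) and at 1.29 CPM in mTDE replicate 2 (3 reads, 0.619 to 8.77), and was listed at 0 in the other 2 libraries. Each cell line thus had 1 library with a few reads and 1 with none, and no difference could be read from so few reads. When all rows above 0 in any library were tested, its log2 fold change was -0.12 (standard error 0.86, limma adjusted p = 0.95). In mTDE replicate 1, where miR-31 and miR-126 were both listed at 0, the tenth percentile of the rows above 0 was 6.94 CPM, against 1.61 and 1.30 CPM in the pTDE libraries. It was 8.58 CPM in mTDE replicate 2, where both were above 0, and the part of the sparse low end in the zeros was not tested. Where miR-31 was above 0, only 5.56% and 0.602% of the rows were lower. By its level, miR-31 was the only 1 of the 5 at or near the detection limit in all 4 libraries.

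The agreement of replicates set how much could be seen. In pTDEs the higher library exceeded the lower 1.36-fold for miR-9, 1.52-fold for miR-210 and 1.23-fold for miR-335, but 8.84-fold for miR-126. On the log2 scale the pTDE replicates differed by 2.83 for miR-126, and only 3 of the 326 rows tested differed more. Of the 20 rows nearest to miR-126 in level, 0 differed more, and their median difference was 1.07. In mTDEs the higher library exceeded the lower 1.14-fold for miR-9, 9.63-fold for miR-210 and 16.1-fold for miR-335. These log2 differences were 0.18, 3.22 and 3.75, and that of miR-126 was 4.83, beside a median of 0.91 over all rows tested in mTDEs and 0.64 in pTDEs. Larger differences between the mTDE replicates were seen in 78.5% of the rows for miR-9, 14.7% for miR-210, 8.90% for miR-335 and 3.68% for miR-126. The median mTDE difference of the 20 rows nearest in level was 0.65 for miR-9, 1.86 for miR-210, 1.34 for miR-335 and 4.47 for miR-126. Of these 20 rows, 20 differed more than miR-9, 3 more than miR-210, 0 more than miR-335 and 5 more than miR-126. With miR-126 at 0 in mTDE replicate 1, its mean level fixes its mTDE difference. Its neighbors were chosen by that mean, so they cannot show whether this difference was usual.

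**Figure D4:**
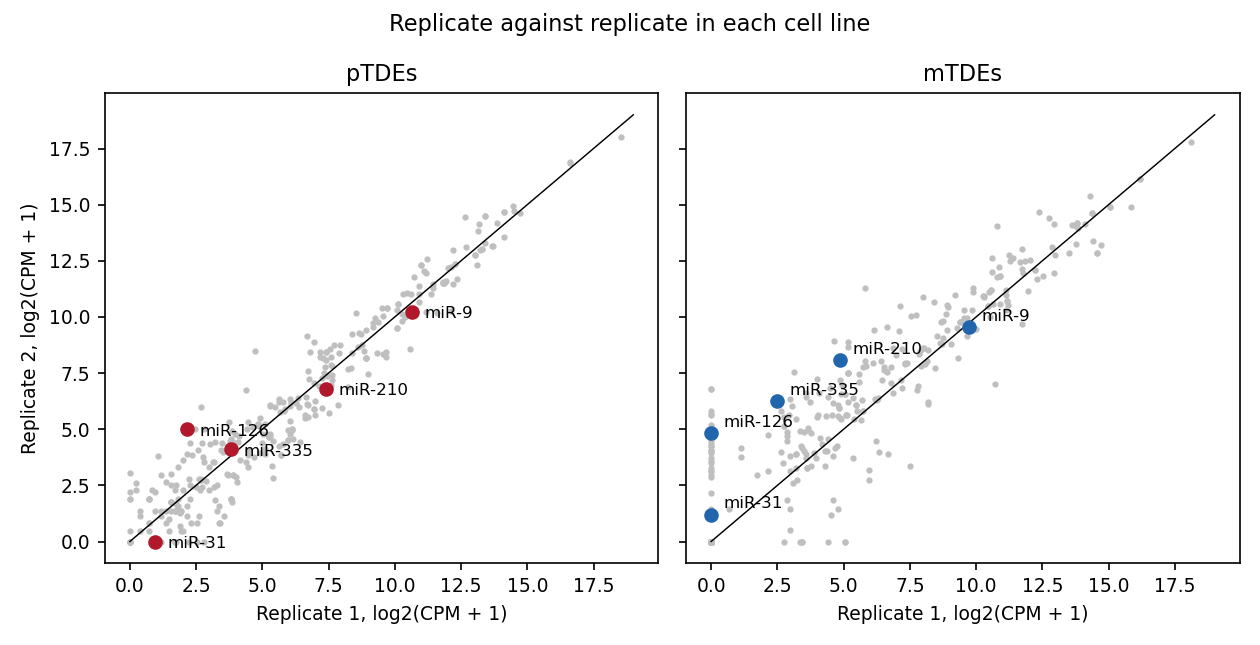
log2(CPM + 1) in replicate 1 (x axis) and replicate 2 (y axis) of pTDEs (left) and mTDEs (right), with the 326 rows tested in gray, the 5 miRNAs in color and the line of equal values. In mTDEs miR-210, miR-335 and miR-126 lie above the line with differences of 3.22, 3.75 and 4.83, and miR-9 lies close to it.

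Of the 4 tested, 3 (miR-210, miR-335 and miR-126) were lower in mTDE replicate 1 than in mTDE replicate 2 and miR-9 was higher, beside the 64.1% of all rows tested that were lower there. For miR-210 and miR-335 both pTDE libraries lay between the mTDE libraries, which was the case for 22.4% of all rows tested. Scaling moved the values but not this order. With median-ratio size factors of 0.892 and 1.40 for mTDE replicates 1 and 2, miR-210 was at 31.5 in mTDE replicate 1, below both pTDE libraries, while mTDE replicate 2 lay only narrowly above the 183 of pTDE replicate 1, and miR-335 was at 5.19 and 53.4.

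Ratios between 2 miRNAs within a library are not changed by a factor common to all its rows. They do depend on the conversion of the deposited whole numbers to CPM, which assumes a library sum of 1000000. The ratio of miR-9 to miR-210 was 9.52 and 10.7 in the pTDE libraries, against 30.3 in mTDE replicate 1 and 2.77 in mTDE replicate 2. The ratio of miR-9 to miR-335 was at least 72.9 in both pTDE libraries, and was 184 and 10.0 in mTDE replicates 1 and 2. Both ratios were wider apart between the mTDE replicates than between the cell lines. The ratio of miR-210 to miR-335 was 12.8 and 6.82 in pTDEs and 6.07 and 3.62 in mTDEs. Its pTDE replicate 2 value was close to that of mTDE replicate 1, and a ratio of 2 against 2 libraries that do not overlap has an exact permutation p of 0.333, two-sided.

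**Figure D5:**
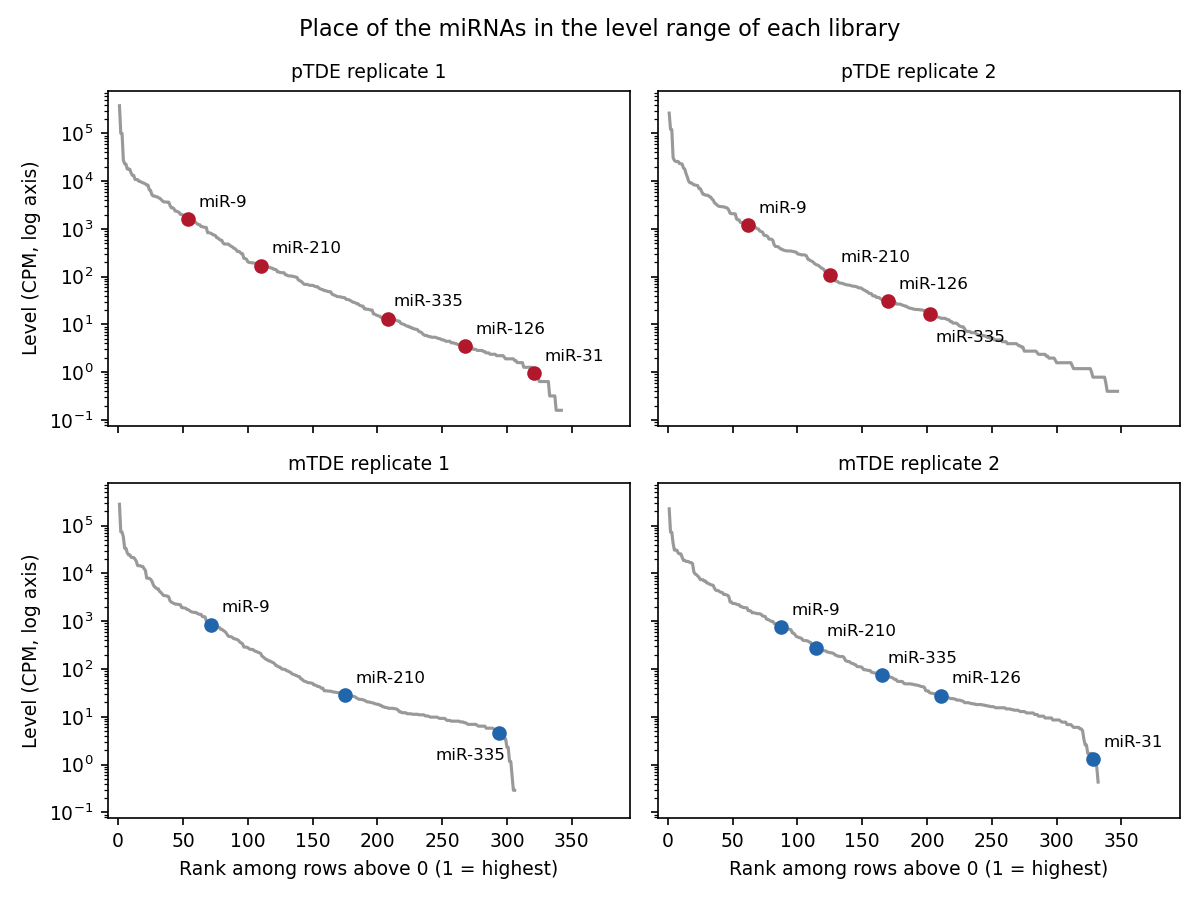
Level in CPM (log axis) against rank for all rows above 0 in each library (gray line), with the 5 miRNAs marked where they are above 0. miR-9 lies between rank 54 and 87, miR-335 moves from rank 294 in mTDE replicate 1 to 165 in mTDE replicate 2, and miR-31 lies at the foot of the curve.

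Related miRNAs were read from the same fit. Copies with nearly equal values, such as those of miR-7, let-7a and miR-103, count as separate distinct rows in these lists and their medians. Of other miRNAs known to promote breast cancer metastasis, miR-10b, miR-21, miR-103, miR-107 and miR-155 had 6 distinct rows, all above 0 in every library, miR-105 was listed at 0 in all libraries, and 0 were called in either direction. Their median log2 fold change was -0.22, from -0.67 to 1.29. miR-21 was the highest of them, at 378000 and 265000 CPM in pTDEs and 280000 and 225000 CPM in mTDEs. Of other known or proposed suppressors, 24 of 27 distinct rows were tested, 0 were higher and 6 were lower in pTDEs by limma, with a median log2 fold change of 0.12. The 6 were cfa-mir-141, cfa-mir-200a, cfa-mir-200b, cfa-mir-200c, cfa-mir-429 and cfa-mir-205, epithelial miRNAs of the miR-200 family and miR-205, with adjusted p-values from 0.0084 to 0.040. They are also the 6 calls of the whole table, and the list was made with those calls known. Of the 6, 4 (cfa-mir-141, cfa-mir-200a, cfa-mir-200b and cfa-mir-429) were at 0 in both pTDE libraries and entered the fit only through mTDEs, where they were high, so they had to differ and their calls support nothing about the list. The row with the highest mean level in this list was cfa-let-7a-2 (99800 and 121000 CPM in pTDEs, 74100 and 73300 CPM in mTDEs).

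The known miRNAs with the most similar profile were found by the Euclidean distance between the 4 values of log2(CPM + 1), each set relative to its own mean, over 231 candidates with distinct values. For miR-9 they were cfa-mir-26a-2 and cfa-mir-26a-1, copies of miR-26a with nearly equal values, at a distance of 0.15 each, with a median of 1.79 over all candidates. For miR-210 they were cfa-mir-411 (0.46) and cfa-mir-3958 (0.53), with a median of 2.42. For miR-335 they were cfa-mir-433 (0.56) and cfa-mir-133b (0.62), both listed at 0 in mTDE replicate 1, with a median of 2.72. For miR-126 they were cfa-mir-143 (0.47) and cfa-mir-1468 (0.90), with a median of 4.0. These distances rest on 4 libraries of unequal depth scaled to 1 common total, and they are given as a description only.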

How the data were processed

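Small RNA of EVs from CHMp and CHMm cells was sequenced, with 2 libraries per cell line assigned from their labels. The authors trimmed and length-selected reads with cutadapt, merged forward and reverse reads and used miRDeep2 with CanFam3.1 for prediction and quantification (versions not given in the sources used here). The deposited whole numbers are treated as a score: the authors describe them as CPM, but the steps between low values are not equal. The authors' own comparison of the cell lines in the same deposited table (log2 fold changes and mean log2 CPM, a likelihood ratio score, p-values and false discovery rates, made with edgeR) was not used. No miRNA sequences were used here.

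The score was turned into CPM by 2^(value/s) - 1. The divisor s (495.3, 493.3, 487.5 and 426.1 in the 4 libraries) was the number that brings the library's sum to 1000000. The worth of 1 read was the largest step of which all values under 20 CPM are whole multiples, allowing for rounding. After division by it, 100% of these values lay within 0.1 of a whole number. Conversion and fit were tested on simulated data. limma 3.58.1 (R 4.3.3, eBayes with trend, prior degrees of freedom 2.4) was fitted to log2(CPM + 1), which narrows differences between single libraries at low levels. Python 3.11.15 was used for all else. Intervals of read numbers are exact Poisson intervals at 95%.

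The 5 miRNAs, the related lists (promoters, suppressors, hypoxia-linked, blood, liver, stromal) and the alternatives were chosen with earlier results of these data known. Besides the 5, the text names called list members, the row of each list with the highest mean level, and the 2 nearest profiles per tested miRNA. List members were matched by number, with copy, letter or arm endings allowed. miR-373 and miR-520c had no row of that name and were not analysed here. Single values in the text of other list members (miR-144, miR-451, miR-145, miR-199-1, miR-214, miR-27b, miR-103-1, miR-181c) were chosen after their values were seen.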

Additional observations from a re-analysis of the deposited data

How the results depend on the processing

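None of the 60 alternative fits of the 4 tested miRNAs (11 settings and 4 libraries left out for each) gave an adjusted p-value under 0.05. The 11 settings kept the direction of miR-9 (0.23 to 1.03), miR-210 (0.30 to 0.87) and miR-126 (0.45 to 5.16), and that of miR-335 in 10 (-0.50 to -0.12), but it was 0.12 when the deposited values were used as CPM, with no conversion. That setting is on another scale, and it also gave the 0.23 of miR-9, the 0.30 of miR-210 and the 5.16 of miR-126. With 1 library left out, log2 fold changes ran from 0.57 to 1.01 for miR-9, -0.98 to 2.24 for miR-210, -2.28 to 1.47 for miR-335 and -1.25 to 3.58 for miR-126. The difference for miR-31 (-0.12 on the log2 scale, not tested) ran from -0.20 to 0.04, and from -0.72 to 0.48 with 1 library left out. The difference in the log2 ratio of miR-210 to miR-335 was 1.03, 0.17 when no conversion was made, and from 0.59 (without pTDE replicate 1) to 1.47 (without pTDE replicate 2) when 1 library was left out. The log2 ratio of miR-9 to miR-210 differed by 0.15 and that of miR-9 to miR-335 by 1.19 (-0.07 and 0.11 when no conversion was made), with ranges of -1.55 to 1.86 and -0.78 to 3.15 when 1 library was left out.

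Over all rows, the 0 calls higher in pTDEs became 28 when 0.1 CPM was the pseudocount, 39 when no conversion was made, 5 under median-ratio scaling, 4 without a mean-variance trend, 5 under voom and 4 when predicted miRNAs were left out. The 6 calls lower in pTDEs became 11 under the lower pseudocount, 11 when no conversion was made and 11 under voom. With 1 library left out and the lone library assumed to vary like the others, calls ranged from 0 to 37 higher and from 0 to 4 lower: 37 and 4 without either pTDE replicate, 0 and 0 without either mTDE replicate. The cause was not tested, apart from the libraries and miRNAs left out, which change what is fitted. Replicate numbers are shared by the labels only. The differences between replicates 1 and 2 correlated at 0.151 between the cell lines over 326 rows, and a replicate block gave 0 rows called higher and 7 lower, with no call among the 4 miRNAs (miR-9, log2 fold change 0.79, adjusted p = 0.40 from limma).

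With 2 libraries per cell line, the spread between replicates limits what can be said of miR-126, miR-335 and miR-210, and the few reads limit what can be said of miR-31.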
